A study of Mus musculus with 11 samples.

Results

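The nuclear-encoded subunits of the oxidative phosphorylation complexes were followed in sorted microglia of 4 mouse genotypes. Members were the protein-coding rows whose gene symbol starts with Ndufa, Ndufb, Ndufc, Ndufs, Ndufv, Sdha to Sdhd, Uqcr, Cox4i, Cox5, Cox6, Cox7, Cox8 or Atp5, leaving out Ndufaf. This took 92 of the 55401 rows, with 39 in complex I, 4 in complex II, 8 in complex III, 19 in complex IV and 18 in complex V. The letters of the rule also took Sdhaf1 to Sdhaf4, which encode assembly factors of complex II and are described apart. Atp5o stood on 2 overlapping gene IDs, so the 92 rows carry 91 symbols. A filter on low counts passed 89 of the 92. The rows that did not pass were Ndufa4l2, Cox7b2 and Cox8c.

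The study asked how Inpp5d, the gene of the phosphatase SHIP1, bears on loss of TREM2 signalling in a mouse with amyloid plaques. Tyrobp encodes DAP12, the adaptor through which the receptor TREM2 signals. Every mouse carried the App knock-in alleles called NLGF, on C57BL/6, and was 9 to 10 months old, so no group was free of amyloid alleles. Live CD11b+/CD45+ brain cells gave 3 NLGF libraries, 3 Inpp5d+/-;NLGF libraries, 2 Tyrobp-/-;NLGF libraries and 3 of Tyrobp-/-;Inpp5d+/-;NLGF. The genotype with both mutations is named the compound mutant below. The labels name no Cre line or cell-type-specific driver for either mutation.

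In the inner mitochondrial membrane, complexes I and II pass electrons to ubiquinone, complex III passes them on to cytochrome c and complex IV, cytochrome c oxidase, hands them to oxygen. Complexes I, III and IV pump protons, and complex V, the ATP synthase, uses the gradient to make ATP. Most subunits are encoded in the nucleus, a few in mitochondrial DNA, and several complex IV subunits exist as tissue isoforms encoded by separate genes.

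Library totals ran from 29490567 to 66637052 counts, and the members took 0.902% to 1.10% of the counts of a library. All 37 rows of mitochondrial DNA held 0 counts in every library, so the mitochondrially encoded subunits were not measured. Tyrobp stood at 2194 ± 318 CPM (CPM, counts scaled to a common TMM-adjusted library size, SD, n = 3) in NLGF and at 7.98 ± 1.36 CPM (SD, n = 2) in Tyrobp-/-;NLGF. All 8 microglial markers had counts in every library. The summed level of 12 neutrophil markers was higher in the Tyrobp-/- libraries, at 0.737 to 233.2 CPM in NLGF and 54.7 to 188 CPM in Inpp5d+/-;NLGF, against 4438 and 19197 CPM in Tyrobp-/-;NLGF and 256 to 9904 CPM in the compound mutant. None of the 12 was at 0 in a Tyrobp-/- library, and 6 of 12, Ngp among them, were at 0 in NLGF replicate 1. Sample titles number the Tyrobp-/- mice in a range apart from all other mice, so litter and handling cannot be told apart from Tyrobp genotype.

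Among the 89 tested members, 1 passed the edgeR test for Tyrobp loss, and it did so on both Inpp5d backgrounds (0.863% and 0.897% of all genes tested passed there). Cox6a2, the heart and muscle isoform of cytochrome c oxidase subunit 6a, fell to 0.176 and 0.232 times the control level. The remaining subunits of complexes I to V lay close to the controls, with small shifts that were mostly downward. No member passed the test for loss of 1 Inpp5d copy, with Tyrobp present or absent.

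Cox6a2 (ENSMUSG00000030785.8) lies on the minus strand at chr7:128205435-128206387 of GRCm38. It sits inside the span of the integrin gene Itgad on the other strand, with which its exons share bases. In NLGF its level was 80.2, 94.8 and 64.2 CPM. The Inpp5d+/-;NLGF libraries gave 67.7, 74.9 and 107 CPM. In Tyrobp-/-;NLGF it was 11.8 and 16.2 CPM. All 5 Tyrobp-/- libraries thus lay far below the 6 others, as the compound mutant gave 15.4, 18.0 and 24.7 CPM. Group means were 79.7 ± 15.3 CPM in NLGF (SD, n = 3), 83.3 ± 21.2 CPM in Inpp5d+/-;NLGF (SD, n = 3), 14.0 ± 3.11 CPM in Tyrobp-/-;NLGF (SD, n = 2) and 19.4 ± 4.82 CPM in the compound mutant (SD, n = 3). In Tyrobp-/-;NLGF against NLGF Cox6a2 fell by 2.51 on the log2 scale (SE 0.305, edgeR adjusted p = 0.0064). In the compound mutant against Inpp5d+/-;NLGF, which shares no library with the former comparison, it fell by 2.10 (SE 0.256, edgeR adjusted p = 0.00624). Ranked by p, Cox6a2 was 33rd and 35th of 20390 genes in these comparisons. Against NLGF the compound mutant differed by -2.04 (SE 0.255, edgeR adjusted p = 0.00732). In bulk RNA, fewer cells that hold a transcript and less of it per cell cannot be told apart.

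**Figure D1:**
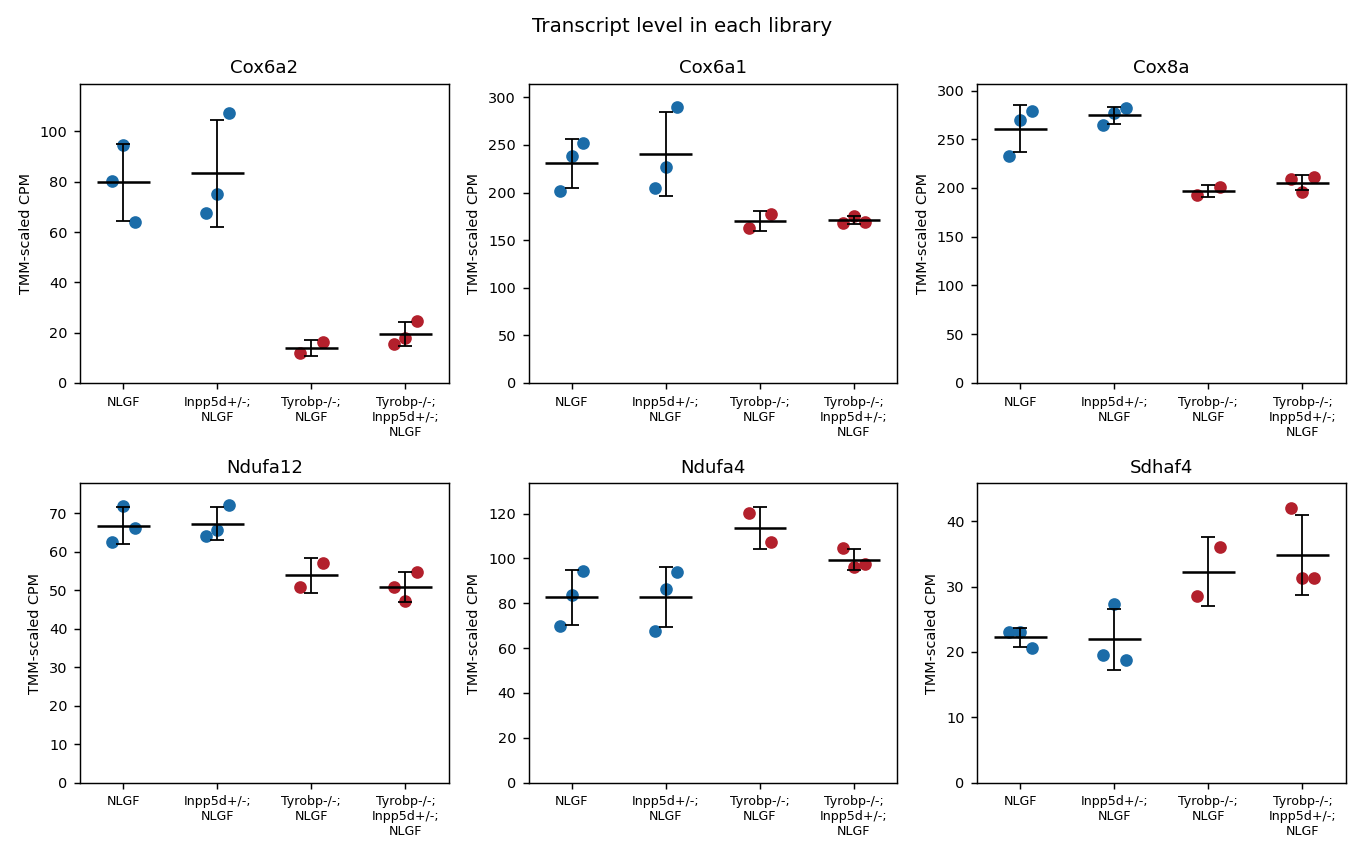
Level of 6 members in each library, in TMM-scaled CPM (vertical axes start at 0), by genotype, with red points for Tyrobp-/- libraries, blue points for the others, a bar for the group mean and whiskers for 1 SD. The 5 Tyrobp-/- libraries of Cox6a2 sit between 11.8 and 24.7 CPM and the 6 others between 64.2 and 107 CPM, while the gaps of the other genes are much smaller. The 6 genes were picked after their values were seen.

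The Tyrobp-/- libraries also differed in neutrophil RNA, and the Cox6a2 values are given beside it. Monocyte RNA differed too, with 8 markers summing to 13.3 to 59.2 CPM in libraries with Tyrobp and 101 to 1911 CPM without. No fit took the monocyte markers as a covariate. With the neutrophil markers as a covariate, the Cox6a2 difference was -2.65 (SE 0.513, edgeR adjusted p = 0.199) in Tyrobp-/-;NLGF against NLGF. In the compound mutant against Inpp5d+/-;NLGF it was -2.18 with the covariate (SE 0.354, edgeR adjusted p = 0.0661). Neither passed with the covariate. Without the 2 libraries with most S100a8, Tyrobp-/-;NLGF replicate 1 and compound replicate 2, the differences were -2.30 and -2.05 (edgeR adjusted p = 0.139 and 0.0556). The call against NLGF also rested on both Tyrobp-/-;NLGF libraries. Without replicate 1 of these the adjusted p was 0.0971, and without replicate 2 it was 0.0514. These fits, and the one without the 2 libraries with most S100a8, leave Tyrobp-/-;NLGF with 1 library, so the spread comes from the remaining groups alone.

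The paralog Cox6a1 encodes the isoform of subunit 6a found in most tissues. The last 300 bases of its coding sequence and the 291 of Cox6a2, stop codons left out, are shown because reads are assigned between them by their letters, and capitals mark bases that differ from the other gene or have no aligned partner there.
Cox6a1: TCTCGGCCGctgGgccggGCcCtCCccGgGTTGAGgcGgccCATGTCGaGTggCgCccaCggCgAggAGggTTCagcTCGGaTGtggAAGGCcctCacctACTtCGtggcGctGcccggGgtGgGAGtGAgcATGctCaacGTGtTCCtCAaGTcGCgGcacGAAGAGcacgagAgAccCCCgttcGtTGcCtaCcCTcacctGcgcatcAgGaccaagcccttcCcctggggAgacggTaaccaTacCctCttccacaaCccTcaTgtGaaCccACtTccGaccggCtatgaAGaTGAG
Cox6a2: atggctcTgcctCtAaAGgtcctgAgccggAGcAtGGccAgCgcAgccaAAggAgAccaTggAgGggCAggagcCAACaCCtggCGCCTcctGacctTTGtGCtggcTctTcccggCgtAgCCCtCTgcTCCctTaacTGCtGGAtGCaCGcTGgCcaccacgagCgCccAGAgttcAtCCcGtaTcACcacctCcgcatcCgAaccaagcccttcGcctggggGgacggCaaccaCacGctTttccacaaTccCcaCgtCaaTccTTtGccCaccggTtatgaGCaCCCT
Over 291 aligned bases, 64.6% were identical, and the longest identical run was 12 bases (GENCODE M21 transcripts).

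Cox6a1 was at 202, 238 and 252 CPM in NLGF and at 205, 227 and 290 CPM in Inpp5d+/-;NLGF. In Tyrobp-/-;NLGF it was at 162 and 177 CPM, and in the compound mutant at 168, 176 and 169 CPM. The 5 Tyrobp-/- libraries again lay below the 6 others, by a small margin. The log2 difference was -0.44 (SE 0.153, edgeR adjusted p = 0.259) with both Inpp5d copies and -0.49 (SE 0.135, edgeR adjusted p = 0.154) with 1 copy, and neither passed. DESeq2 called Cox6a1 in the latter comparison. Per length, Cox6a2 made up 26.4% ± 4.77 (SD, n = 3) of the Cox6a1 and Cox6a2 signal in NLGF and 26.2% ± 1.298 (SD, n = 3) in Inpp5d+/-;NLGF. Its share was 10.4% ± 2.36 (SD, n = 3) in the compound mutant and 7.81% ± 1.15 (SD, n = 2) with Tyrobp alone lost. The share follows from the Cox6a2 levels given above and is a description.

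The position of Cox6a2 was examined after its values were seen. Of the 14 tested genes within 100 kb, Itgax, which encodes the integrin CD11c, was the other gene that passed in both comparisons. Itgax ends 54.8 kb before Cox6a2. It went from 164 ± 17.7 CPM (SD, n = 3) in NLGF to 20.2 ± 5.48 CPM (SD, n = 2) in Tyrobp-/-;NLGF, a log2 difference of -3.02 (SE 0.579, edgeR adjusted p = 0.0498). From Inpp5d+/-;NLGF to the compound mutant it went from 163 ± 17.1 to 23.4 ± 17.4 CPM (SD, n = 3 each), a difference of -2.80 (SE 0.486, edgeR adjusted p = 0.031). Itgam, the CD11b gene of the sort gate, which lies in the same window, did not pass, with -0.15 (SE 0.171, edgeR adjusted p = 0.818) and -0.35 (SE 0.153, edgeR adjusted p = 0.359). Itgad, the gene that spans Cox6a2, reached at most 1.79 CPM in any library, far below Cox6a2. The disrupted Tyrobp gene is on the same chromosome at 97.8 Mb distance, with 976 tested genes between them.

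The other complex IV genes that passed the filter mostly lay slightly lower without Tyrobp. They include Cox5b-ps, a row with a pseudogene-style symbol typed as protein-coding, at group means from 3.08 to 3.77 CPM. Also among them are Cox4i2, Cox7a1 and Cox8b, with means below 1 CPM, but not Ndufa4, which is counted by its symbol in complex I. Of these 16, 11 had a log2 difference below 0 in Tyrobp-/-;NLGF against NLGF and 12 in the compound mutant against Inpp5d+/-;NLGF, with medians of -0.14 and -0.09. Cox8a encodes the common isoform of subunit 8 and had the highest level per length of all members. It was at 233.3, 270 and 279 CPM in NLGF, 264, 277 and 282 CPM in Inpp5d+/-;NLGF, 193 and 201 CPM in Tyrobp-/-;NLGF, and 210, 196 and 211 CPM in the compound mutant. All 5 Tyrobp-/- libraries were below all 6 others. The differences of -0.41 (SE 0.09996, edgeR adjusted p = 0.11) and -0.42 (SE 0.0886, edgeR adjusted p = 0.0684) did not pass, while DESeq2 called Cox8a in both comparisons. Cox7c, a small structural subunit, was at 86.8, 123 and 87.2 CPM in NLGF and at 71.6 and 75.2 CPM in Tyrobp-/-;NLGF. With 1 Inpp5d copy its libraries did not overlap either, at 87.2, 113 and 101 CPM against 79.3, 62.8 and 82.9 CPM in the compound mutant. Cox4i1, the common isoform of subunit 4, was at 360, 524 and 527 CPM in NLGF and at 369 and 374 CPM in Tyrobp-/-;NLGF, which overlap.

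Tissue isoforms other than Cox6a2 were at low levels. Cox4i2, an isoform of subunit 4 linked to oxygen supply, reached at most 0.54 CPM and was listed at 0 in 6 libraries. It was among the 3 members with the smallest p for the compound mutant against Tyrobp-/-;NLGF and for the interaction, at levels where a fold carries no weight. Cox7a1, the heart isoform of subunit 7a, reached at most 0.60 CPM and made up 0.345% ± 0.342 (SD, n = 3) of the Cox7a1 and Cox7a2 signal per length in NLGF. Cox8b made up 0.0228% ± 0.0237 (SD, n = 3) of the Cox8a and Cox8b signal there, and Cox6b2 0.435% ± 0.0795 (SD, n = 3) of Cox6b1 and Cox6b2. Cox7b2 and Cox8c were at 0 counts in all 11 libraries, where 3 counts correspond to 0.0477 to 0.1 CPM. Ndufa4l2, the paralog of Ndufa4, had at most 2 counts in a library. The further complex IV genes Cox7b, Cox5a, Cox5b, Cox7a2, Cox7a2l and Cox6b1 had group means between 58.6 and 209 CPM in NLGF and passed no test. Against the low-level isoforms, the 26.4% share of Cox6a2 in NLGF stands apart.

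In complex I, 38 of 39 members were tested, and edgeR called none in the comparisons of 2 genotypes (DESeq2 called Ndufa12 in the compound mutant against either control). The medians were -0.08 in Tyrobp-/-;NLGF against NLGF and -0.06 in the compound mutant against Inpp5d+/-;NLGF, with 24 of 38 below 0 in each. Ndufa12, an accessory subunit, was at 62.5, 71.9 and 66.1 CPM in NLGF, 64.1, 65.8 and 72.1 CPM in Inpp5d+/-;NLGF, 50.7 and 57.1 CPM in Tyrobp-/-;NLGF, and 50.8, 47.1 and 54.9 CPM in the compound mutant. Both Tyrobp-/- groups lay below the controls without overlap, at -0.31 (SE 0.129, edgeR adjusted p = 0.371) and -0.40 (SE 0.115, edgeR adjusted p = 0.167). Ndufa1, an accessory subunit of the membrane arm, also had all 5 Tyrobp-/- libraries (103 to 117 CPM) below the 6 others (118 to 149 CPM). Ndufa5, another accessory subunit, differed by -0.45 (SE 0.168, edgeR adjusted p = 0.286) with 1 Inpp5d copy. Ndufa4 went the other way. The protein of Ndufa4 was named as a complex I subunit and is now placed in complex IV. Its level was 69.7, 83.8 and 94.3 CPM in NLGF, 67.7, 86.6 and 93.9 CPM in Inpp5d+/-;NLGF, 120 and 107 CPM in Tyrobp-/-;NLGF, and 105, 96.3 and 97.4 CPM in the compound mutant. Every Tyrobp-/- library was above every other, the nearest pair at 96.3 and 94.3 CPM. The differences were 0.46 (SE 0.165, edgeR adjusted p = 0.28) and 0.27 (SE 0.149, edgeR adjusted p = 0.467).

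Complex II has 4 subunits. Sdha, the flavoprotein that oxidises succinate, was at 280, 256 and 218 CPM in NLGF, 275, 285 and 244 CPM in Inpp5d+/-;NLGF, 193 and 182 CPM in Tyrobp-/-;NLGF, and 209, 228 and 207 CPM in the compound mutant. It was lower without overlap in both comparisons, at -0.43 (SE 0.124, edgeR adjusted p = 0.169) and -0.32 (SE 0.109, edgeR adjusted p = 0.249), and passed in neither. DESeq2 called Sdha in the former. The iron-sulphur subunit Sdhb overlapped between groups, with means from 141 ± 8.58 CPM (SD, n = 3) in Inpp5d+/-;NLGF to 156 ± 21.5 CPM (SD, n = 3) in the compound mutant. Among the membrane anchors, Sdhc differed by -0.13 (SE 0.144, edgeR adjusted p = 0.811) with both Inpp5d copies and Sdhd by 0.19 (SE 0.143, edgeR adjusted p = 0.615) with 1 copy. Of the 4 genes, 3 were below 0 in Tyrobp-/-;NLGF against NLGF and 2 in the compound mutant against Inpp5d+/-;NLGF. Only Sdha had an unadjusted p below 0.05 in edgeR, so a shared direction is not settled by these values.

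The 4 assembly factors of complex II had differences above 0 in both comparisons, with medians of 0.48 and 0.46. Sdhaf4, which helps mature the flavoprotein, was at 23.1, 23.0 and 20.6 CPM in NLGF and 19.6, 27.3 and 18.8 CPM in Inpp5d+/-;NLGF. In Tyrobp-/-;NLGF it was at 28.6 and 36.02 CPM, and in the compound mutant at 42.0, 31.3 and 31.3 CPM. The lowest Tyrobp-/- library was above the highest of the others. The differences were 0.54 (SE 0.217, edgeR adjusted p = 0.35) and 0.67 (SE 0.197, edgeR adjusted p = 0.18), and neither passed. DESeq2 called Sdhaf4 in the compound mutant against either control. The row Gm26524, on the other strand, shares exon bases with Sdhaf4, and the library kit does not mark strand. Sdhaf1 differed by 0.48 (SE 0.275, edgeR adjusted p = 0.538) and 0.38 (SE 0.248, edgeR adjusted p = 0.543), the latter at 0.17 without Inpp5d+/-;NLGF replicate 2 and 0.67 without replicate 3.

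None of the 8 complex III genes was called by edgeR or DESeq2. The medians were -0.15 and -0.08. Uqcrh, the hinge protein, differed by -0.31 (SE 0.189, edgeR adjusted p = 0.568) and the small subunit Uqcr10 by -0.29 (SE 0.193, edgeR adjusted p = 0.609) in Tyrobp-/-;NLGF against NLGF. With 1 Inpp5d copy the 2 smallest p values belonged to Uqcr11, another small subunit, at -0.39 (SE 0.143, edgeR adjusted p = 0.274), and to the core subunit Uqcrc1 at 0.26 (SE 0.0972, edgeR adjusted p = 0.282). Uqcrc1 was at 258.5, 273 and 257 CPM in Inpp5d+/-;NLGF, the lowest group, against 278, 355 and 336 CPM in NLGF, 360 and 329 CPM in Tyrobp-/-;NLGF and 314, 316 and 317 CPM in the compound mutant. The order of its groups thus differed from that of Cox6a2.

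In complex V, 18 rows were tested, 2 of them for Atp5o, with a median of -0.04 in each of the 2 comparisons. None was called by edgeR, while DESeq2 called Atp5b with both Inpp5d copies and Atp5j in the compound mutant against NLGF. Atp5b, the catalytic beta subunit, was at 804, 891 and 862 CPM in NLGF, 819, 846 and 736 CPM in Inpp5d+/-;NLGF, 637 and 665 CPM in Tyrobp-/-;NLGF, and 785, 666 and 673 CPM in the compound mutant. It was lower without overlap with both Inpp5d copies (-0.39, SE 0.1002, edgeR adjusted p = 0.125) and overlapped with 1 copy (-0.18, SE 0.0887, edgeR adjusted p = 0.421). The interaction did not pass, at 0.21 (SE 0.133, edgeR adjusted p = 1.0). Atp5g1, Atp5g2 and Atp5g3 all encode the same mature c subunit of the membrane ring. Atp5g2 was at 117, 122 and 114 CPM in NLGF and 112, 124 and 121 CPM in Inpp5d+/-;NLGF, and at 83.6 and 105 CPM in Tyrobp-/-;NLGF and 92.9, 99.1 and 99.4 CPM in the compound mutant. Its 5 Tyrobp-/- libraries lay below the 6 others, with differences of -0.32 (SE 0.117, edgeR adjusted p = 0.292) and -0.29 (SE 0.104, edgeR adjusted p = 0.267). The former was -0.17 without Tyrobp-/-;NLGF replicate 1 and -0.49 without replicate 2. Per length, Atp5g2 made up 43.7% ± 2.89 (SD, n = 3) of the Atp5g signal in NLGF and 39.6% ± 3.69 (SD, n = 2) in Tyrobp-/-;NLGF, so the mix of c subunit genes moved little. Atp5j, coupling factor 6, differed by -0.37 (SE 0.129, edgeR adjusted p = 0.258) with 1 Inpp5d copy and by -0.46 (SE 0.129, edgeR adjusted p = 0.171) in the compound mutant against NLGF. Its exons share bases with Gabpa on the other strand.

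Counted over all complexes, 1 of 89 members passed in Tyrobp-/-;NLGF against NLGF, where 0.863% of all genes tested passed. It was also 1 of 89 in the compound mutant against Inpp5d+/-;NLGF (0.897% of all genes) and 1 of 89 in the compound mutant against NLGF (0.873%). Of all genes, 0.608%, 0.633% and 0.633% passed as lower in these comparisons. These shares are near the background. At an unadjusted p below 0.05, 10 members were lower and 2 higher in the first of these comparisons, where 5.99% and 6.09% of all genes were. In the second 12 were lower and 2 higher (6.26% and 7.15% of all genes). The member medians were -0.08 and -0.06, against 0.00 and 0.02 over all genes, and 56 and 57 of 89 lay below 0 against 49.2% and 47.9% of all genes. In Inpp5d+/-;NLGF against NLGF the median was -0.06 (all genes 0) and 57 of 89 were below 0 as well (49.5% of all genes). Lower values were thus more common than higher ones among the members in each of these comparisons, with or without a difference in Tyrobp. The summed neutrophil markers were higher in the Tyrobp-/- libraries, and with them as a covariate no member passed in the 3 comparisons across Tyrobp genotypes. The share of all genes passing with the covariate was not counted, so this is no result about the members. The size of the differences was small, with 84 and 82 of 89 within 0.5 of 0 on the log2 scale. In the compound mutant against NLGF, which reuses libraries of both comparisons, the median was -0.11 (all genes 0.03) and 66 of 89 were below 0 (47.5% of all genes). There 12 members were lower and 1 higher at an unadjusted p below 0.05, with 6.52% of all genes in each direction.

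**Figure D2:**
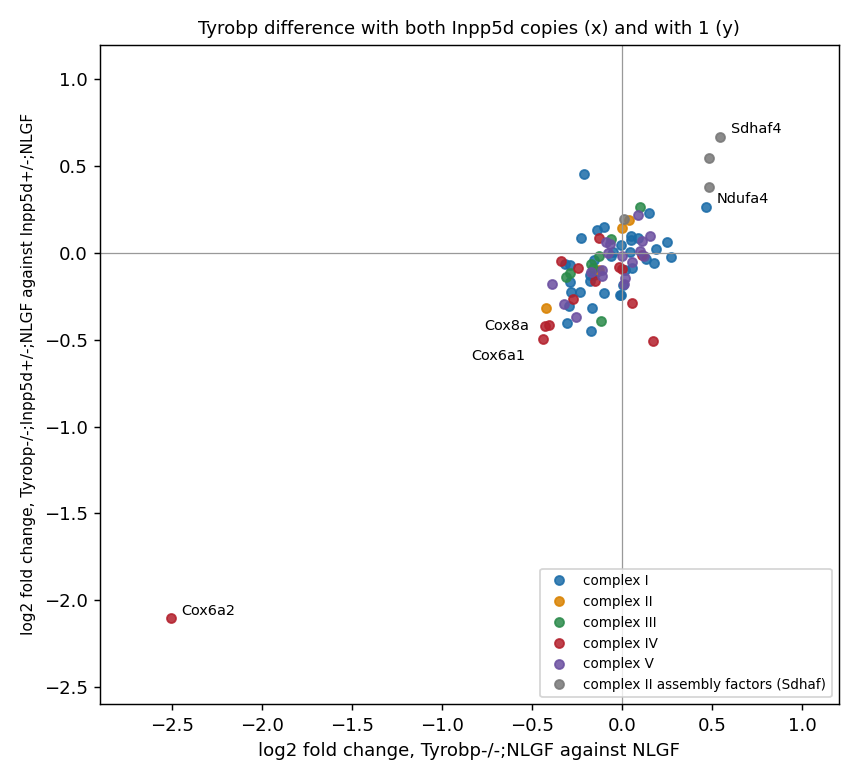
Log2 fold change of the 86 tested members with a mean of at least 1 CPM, Tyrobp-/-;NLGF against NLGF (horizontal) and compound mutant against Inpp5d+/-;NLGF (vertical), coloured by complex. Cox6a2 stands alone at -2.51 and -2.10, and nearly all other points lie within 0.5 of 0 on both axes.

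Libraries did not overlap, and were lower, for 16 members in Tyrobp-/-;NLGF against NLGF (14% of all genes) and for 15 in the compound mutant against Inpp5d+/-;NLGF (9.22%). They were higher without overlap for 7 (15.6% of all genes) and 5 (9.36%). In both comparisons at once 11 members were lower, which is 12.4% of them against 4.76% of all genes. These were Cox6a1, Cox6a2, Cox6c, Cox7c, Cox8a, Ndufa1, Ndufa12, Ndufa13, Sdha, Atp5g1 and Atp5g2. Higher in both were Sdhaf4 and Ndufa4 (2.25%, against 3.82% of all genes). Complex IV, with 17 of the 89 tested members, gave 5 of the 11 lower genes.

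An additive model that pools the Tyrobp difference over both Inpp5d backgrounds has 5 against 6 libraries. It called 7 of 89 members, with 5.37% of all genes called, 2.91% lower and 2.45% higher. The 6 lower members were Cox6a2 (log2 difference -2.28, SE 0.199, edgeR adjusted p = 0.000178), Cox8a (-0.41, SE 0.063, adjusted p = 0.00448), Cox6a1 (-0.47, SE 0.0966, adjusted p = 0.0197), Sdha (-0.37, SE 0.0796, adjusted p = 0.0254), Ndufa12 (-0.36, SE 0.0823, adjusted p = 0.0313) and Atp5g2 (-0.30, SE 0.0741, adjusted p = 0.0399). Sdhaf4 was higher (0.61, SE 0.140, edgeR adjusted p = 0.0319). Complexes I, II, IV and V, with 38, 4, 17 and 18 tested rows, each had a lower member in this list. Complex III had none among 8 tested, too few to set it apart at 2.91% of all genes. Atp5b (-0.27, edgeR adjusted p = 0.0546) and Ndufa4 (0.35, edgeR adjusted p = 0.0965) did not pass. For Inpp5d the additive model called 0 members and 0 genes.

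Averaged within a library, the complexes showed how much the controls themselves varied. Values are mean log2 differences from NLGF over the tested genes of a complex. NLGF replicate 1 was low in every complex, from -0.13 in complex IV to -0.24 in complex III, while NLGF replicates 2 and 3 were above 0. Complex I averaged -0.11 in the compound mutant and -0.05 with Tyrobp alone lost, inside the NLGF range of -0.23 to 0.16. Complex IV without Cox6a2 was at -0.13 ± 0.0202 (SD, n = 2) in Tyrobp-/-;NLGF and -0.16 ± 0.0281 (SD, n = 3) in the compound mutant. NLGF had an SD of 0.136 (n = 3) on this measure, and NLGF replicate 1 at -0.14 overlapped both. For no complex without Cox6a2 did the Tyrobp-/- libraries therefore separate from NLGF. From Inpp5d+/-;NLGF the compound mutant did separate on this measure of complex IV, at -0.19 to -0.13 against -0.11 to 0.01. With the low-level isoforms Cox4i2, Cox6b2, Cox7a1 and Cox8b left out as well, these groups overlapped, at -0.26 to -0.11 against -0.16 to 0.08. The genes of a complex share these libraries and are not replicates.

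**Figure D3:**
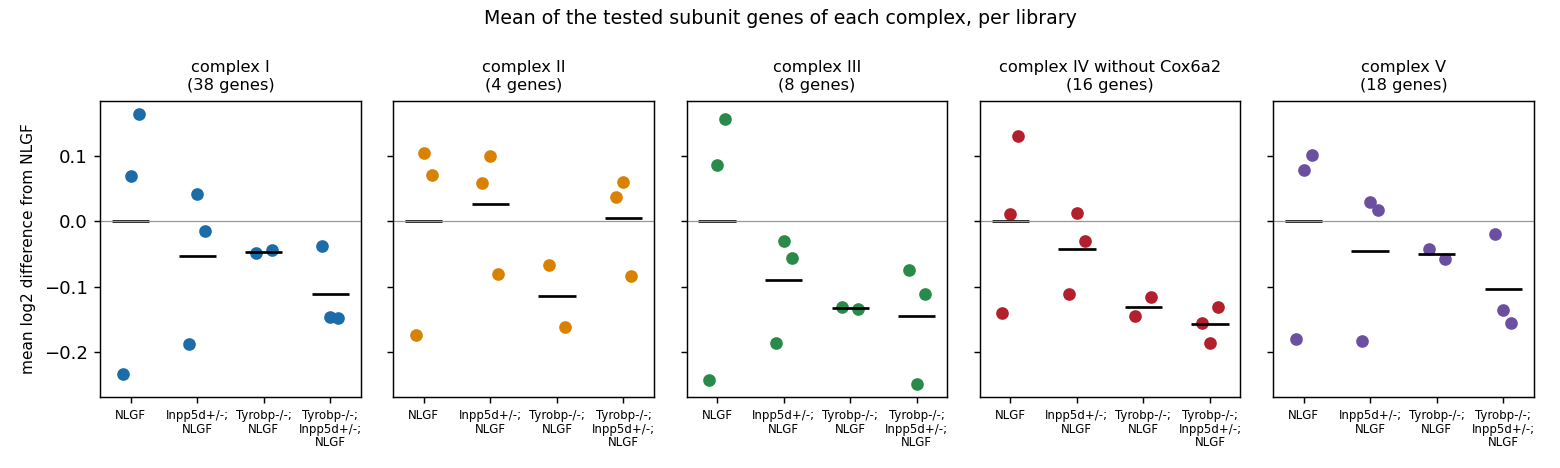
Mean log2 difference from the NLGF mean over the tested genes of each complex, per library (points) and group (bars), with Cox6a2 left out of complex IV. NLGF replicate 1 is the lowest NLGF point in every panel, and the Tyrobp-/- points of each panel overlap the NLGF range.

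Loss of 1 Inpp5d copy left the subunits without a call. Inpp5d itself was at 436, 205 and 313 CPM in NLGF and at 280, 219 and 191 CPM in Inpp5d+/-;NLGF, which overlap. Without Tyrobp it was at 449 and 447 CPM with both copies and at 190, 259.9 and 259.5 CPM with 1, which do not. In Inpp5d+/-;NLGF against NLGF, edgeR called 0 of 89 members (0% of all genes), 2 had an unadjusted p below 0.05 (4.66% of all genes), and DESeq2 and limma-voom called 0. These 2 were Uqcrc1 at -0.30 (SE 0.0972, edgeR adjusted p = 0.952) and Ndufb2, an accessory subunit of complex I, at -0.60 (SE 0.268, edgeR adjusted p = 0.952). Ndufb2 was at 17.1, 24.8 and 23.5 CPM in NLGF and 10.3, 13.5 and 19.2 CPM in Inpp5d+/-;NLGF, which overlap. It shares exon bases with Braf and other rows. Ndufb1-ps followed at -0.34 (SE 0.189, edgeR adjusted p = 0.952). Cox6a2 differed by 0.06 with a 95% interval of -0.48 to 0.61. In the compound mutant against Tyrobp-/-;NLGF, edgeR called 0 of 89 (0.00981% of all genes), with 0 at an unadjusted p below 0.05 (4.08% of all genes) and 0 by DESeq2 and limma-voom. Cox6a2 differed there by 0.47 (SE 0.280, edgeR adjusted p = 1), with a 95% interval of -0.16 to 1.09. Ndufs8, a core subunit that holds iron-sulphur clusters, differed by -0.24 (SE 0.130, edgeR adjusted p = 1) and the core subunit Ndufs3 by 0.24 (SE 0.135, edgeR adjusted p = 1). The interaction of Tyrobp and Inpp5d called 0 members (0% of all genes), with 0 at an unadjusted p below 0.05 (4.7%) and 0 by DESeq2 and limma-voom. Its estimate for Cox6a2 was 0.40 with a 95% interval of -0.42 to 1.23, and for Ndufb2 and Ndufs8 it was 0.67 (SE 0.402) and -0.29 (SE 0.175, edgeR adjusted p = 1.0).

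The subunits were abundant. Per kilobase of the deposited merged exon length, the median member stood at 55.8 CPM per kb against 2.03 for all tested genes, and 84 of 89 members were above that. Complex medians were 52.3 in complex I, 61.9 in complex II, 89.3 in complex III, 48.4 in complex IV and 58.4 CPM per kb in complex V. The 2 leading genes of each complex were Cox8a (384), Ndufa1 (296), Cox6a1 (293), Ndufc2 (205), Atp5b (180), Sdhd (172), Atp5a1 (167), Uqcr11 (165), Uqcrb (138) and Sdhb (67.0 CPM per kb). Levels spread most in complex IV, which holds both the highest member and the near-silent isoforms. Cox6a2 averaged 76.9 CPM per kb over the 11 libraries, at percentile 96.4 of tested genes. That mean mixes unlike groups, at 117 in NLGF and 123 in Inpp5d+/-;NLGF. Without Tyrobp it was 20.6 in Tyrobp-/-;NLGF and 28.5 CPM per kb in the compound mutant. The libraries also varied less in the members than elsewhere. The median SD within a genotype was 0.18 on the log2 scale for members and 0.36 for all tested genes. It was 0.29 for the 9549 genes between 5.88 and 283 CPM, the members' 5th to 95th percentile. Levels inside that range were not matched.

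**Figure D4:**
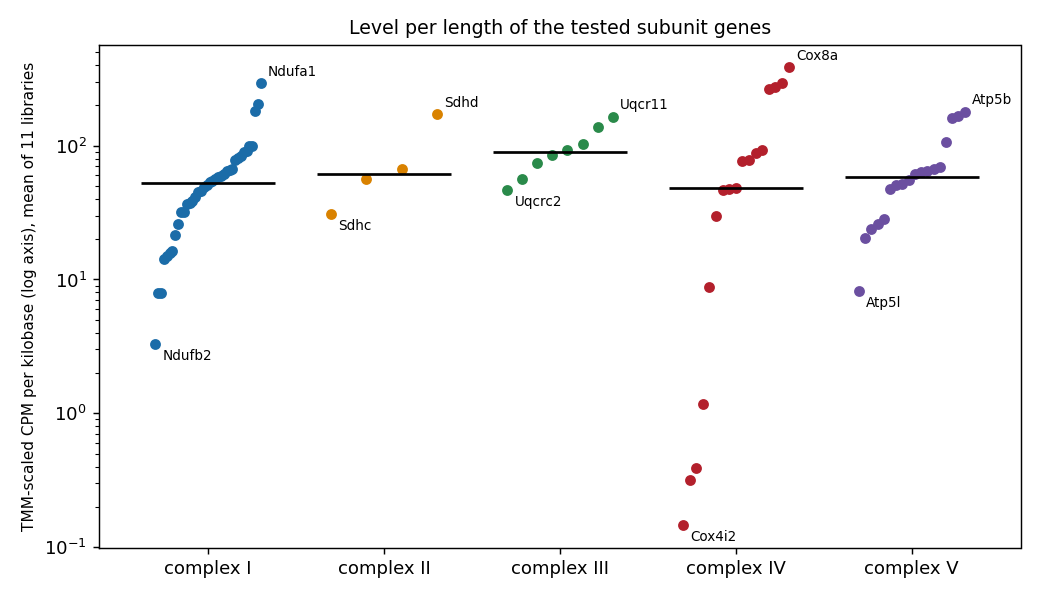
Mean level over the 11 libraries of the tested genes of each complex in TMM-scaled CPM per kilobase (log axis), ordered within a complex, with a bar at the median. Complex IV runs from Cox4i2 at 0.147 to Cox8a at 384 CPM per kb, the widest range of the 5 complexes.

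Other genes of mitochondrial respiration were read from further gene lists. At an unadjusted p below 0.05, 5.99% of all genes were lower and 6.09% higher in Tyrobp-/-;NLGF against NLGF, and 6.26% and 7.15% in the compound mutant against Inpp5d+/-;NLGF. Of 10 tested carriers and complex members outside the naming rule, edgeR called 0 in either Tyrobp comparison, where 4 and 2 were lower at an unadjusted p below 0.05 and 0 higher, with medians of -0.26 and -0.18. Cox15 stood both on this list and on that of the assembly factors. DESeq2 and limma-voom were not counted for these lists. The phosphate carrier Slc25a3 differed by -0.44 (SE 0.103, edgeR adjusted p = 0.0944) and the ADP/ATP carriers Slc25a4 by -0.60 (SE 0.144, edgeR adjusted p = 0.106) and Slc25a5 by -0.26 (SE 0.0866, edgeR adjusted p = 0.234) in Tyrobp-/-;NLGF against NLGF. Of 51 assembly factors, the Sdhaf genes included, 0 passed, 1 was lower and 4 higher at an unadjusted p below 0.05 in the first comparison and 0 lower and 6 higher in the second. The medians were 0.10 and 0.20, so these lay on the other side of 0 from the subunits. Coa4, an assembly factor of complex IV, differed by 0.78 (SE 0.177, edgeR adjusted p = 0.0862) in the first comparison, and Coa5 by -0.69 (SE 0.234, edgeR adjusted p = 0.249). Of 84 genes of mitochondrial transcription and translation 0 passed, with medians of 0.17 and 0.21, and 1 was lower and 7 higher, then 1 lower and 13 higher, at an unadjusted p below 0.05. Its smallest p values in the first comparison were those of Mrpl11, Mrpl43 and Mrpl16, ribosomal protein genes at 0.58, 0.45 and 0.53. Of 21 genes of the tricarboxylic acid cycle 0 passed, with medians of 0.00 and -0.12, and 2 were lower and 0 higher, then 3 lower and 1 higher, at an unadjusted p below 0.05. Dld differed by -0.75 (SE 0.248, edgeR adjusted p = 0.237), Pdha1 by -0.56 (SE 0.237, edgeR adjusted p = 0.377) and the pyruvate carrier gene Mpc1 by -0.37 (SE 0.190, edgeR adjusted p = 0.49).

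Among 25 tested regulators of mitochondrial genes, 2 fell and 1 rose in Tyrobp-/-;NLGF against NLGF, and 1 fell in the compound mutant against Inpp5d+/-;NLGF. Of all genes, 0.608% were called lower and 0.255% higher in the first of these, and 0.633% and 0.265% in the second. Hif1a, the transcription factor of the response to low oxygen, fell from 473 ± 29.3 CPM (SD, n = 3) to 146 ± 8.58 CPM (SD, n = 2), a log2 difference of -1.69 (SE 0.167, edgeR adjusted p = 0.00199). With 1 Inpp5d copy it fell from 476 ± 46.0 to 205 ± 39.4 CPM (SD, n = 3 each), a difference of -1.21 (SE 0.142, edgeR adjusted p = 0.00525). Hspd1, the mitochondrial chaperonin HSP60, fell by 0.68 (SE 0.126, edgeR adjusted p = 0.0424) in Tyrobp-/-;NLGF and differed by -0.43 (SE 0.111, edgeR adjusted p = 0.134) with 1 Inpp5d copy. Nrf1, nuclear respiratory factor 1, rose from 28.6 ± 4.23 CPM (SD, n = 3) in NLGF to 58.0 ± 5.58 CPM (SD, n = 2) in Tyrobp-/-;NLGF, by 1.02 (SE 0.185, edgeR adjusted p = 0.0396). Against Inpp5d+/-;NLGF, at 42.7 ± 1.17 CPM (SD, n = 3), the compound mutant at 49.1 ± 9.76 CPM (SD, n = 3) differed in Nrf1 by 0.20 (SE 0.167, edgeR adjusted p = 0.661) and overlapped. Between Inpp5d+/-;NLGF and NLGF the Nrf1 difference was 0.58 (SE 0.168, edgeR adjusted p = 0.952). In Tyrobp-/-;NLGF against NLGF each of the 3 called regulators differed by more than every member with a mean of at least 1 CPM except Cox6a2. The summed neutrophil markers were higher in the Tyrobp-/- libraries, and their part in the regulators' differences was not tested.

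NRF1 is known to bind promoters of many respiratory chain genes, so the members' promoters were searched for GCGCATGCG, a core of its motif, on both strands. RefSeq promoter windows (GRCm38.p6, 250 bases before to 50 after a start) were found for 73 of 91 symbols, in 78 windows. Cox6a2 was not among them, so its promoter was not searched. The letters were in 8 windows, 10.3% of the members' against 1.75% of all windows and 3.23% of those of tested genes. The sites of members lower in the additive model are shown with the match in capitals, both on the minus strand.
Cox6a1, chr5:115349102-115349130: caggaacgggGCGCATGCGcgctctcgct
Atp5g2, chr15:102671071-102671099: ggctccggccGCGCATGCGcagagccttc
The other windows with it were those of Atp5k, Atp5l, Ndufa8, Ndufa11, Uqcr11 and Uqcrc1, which were not called by edgeR. The ETS motif CCGGAAGT was in 6.41% of member windows, Cox8a's among them, against 3.89% of all and 7.22% of tested genes' windows. AAGATGGCG, a core of the YY1 motif, was in 8.97% (1.4% of all, 2.6% of tested genes') and TCAAGGTCA, an ERR motif, in 2.56% (0.423% and 0.292%), the latter in Atp5g3 and Sdhd. Uqcr11's window held both the NRF1 and the ETS letters. A match is a run of letters and no evidence of binding.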

How the data were processed

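Sorted cells gave total RNA and full-length SMART-Seq v4 cDNA, a method that marks no strand, per the labels' protocols. STAR 2.7.3a, featureCounts 1.6.4 and the builds GRCm38.p6 and mm10 are named in the submitters' processing notes. The authors deposited unnormalised whole-number counts per gene with each gene's merged exon length in bases. Which annotation release and strand setting were used, and how multiply placed reads were treated, is not given in the sources used here. Exons of 36 of the 92 members share bases with another row, and reads there cannot be told apart.

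Genes were kept with filterByExpr (minimum count 10, minimum total 15), which left 20390. With edgeR 4.0.16 in R 4.3.3, TMM scaling and 1 coefficient per genotype over 11 libraries, glmQLFTest gave each comparison, with Benjamini-Hochberg adjustment over all genes at 0.05. SE was taken from the test statistic. Means within a library used log2(CPM + 0.5). Floors (3 counts) cover counting error only. The series counts the libraries as mice, litters are not given, and p values measure the spread between libraries. No 2 libraries were identical. The procedure was also run on counts simulated from a mean per gene with set changes. That simulation held no neutrophil or litter shift, so it says nothing about those.

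Members and lists were chosen with earlier results of these data known. Named were members called, the 2 with the highest level per length and the 2 with the smallest p per complex in each Tyrobp comparison, the 3 with the smallest p in each other comparison, paralogous isoforms, and of other lists the 3 with the smallest p in Tyrobp-/-;NLGF against NLGF. For members with a mean below 1 CPM, which include Cox4i2, levels but no folds are given. Atp5md and Atp5mpl, members by the rule, were left out of the list of carriers. Other genes named with values were chosen after their values were seen.

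Alternatives were DESeq2 1.42.0, limma-voom (3.58.1), upper-quartile or RLE scaling, a stricter filter or none, 2 groups only, a neutrophil covariate, a threshold of 0.1, an additive model and each library left out. Fits without the 2 libraries with most S100a8 and without the 4 Sdhaf rows were added after the data were seen.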

Additional observations from a re-analysis of the deposited data

How the results depend on the processing

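Medians of the members kept their direction under the alternatives that use all libraries, and the calls of 0 members for Inpp5d and the interaction were kept under all. The number called in Tyrobp-/-;NLGF against NLGF was 4 with DESeq2, 7 with the additive model, and 0 with the neutrophil covariate and without the 2 libraries with most S100a8. In the compound mutant against Inpp5d+/-;NLGF it was 5 with DESeq2, 2 with the stricter filter, 2 at a threshold of 0.1, and 0 with the covariate and without those 2 libraries. In the compound mutant against NLGF it was 5 with DESeq2 and 0 with the covariate and without those libraries. DESeq2 called 5.72%, 5.74% and 5.64% of its tested genes there. Its added members were Atp5b, Sdha and Cox8a in the first and Sdhaf4, Cox6a1, Ndufa12 and Cox8a in the second. In the third they were Sdhaf4, Ndufa12, Atp5j and Cox8a. The share of all genes passing was not counted for the covariate, the stricter filter, the threshold of 0.1 or the fits without libraries. Member counts under those settings are therefore no result about the members. Leaving out each library gave 0 to 1, 1 to 2 and 1 to 1 called members; 0 without Tyrobp-/-;NLGF replicate 1 or 2, and 2 (Cox8a added) without NLGF replicate 1. The median moved from -0.18 to 0.00 in the first over these fits, -0.11 to -0.02 in the second, -0.20 to -0.04 in the third and -0.14 to 0.02 for Inpp5d+/-;NLGF against NLGF. Sdhd, at 0.19 with 1 Inpp5d copy, was at -0.00396 with the covariate. Of 36 differences of single members, 8 moved by over 1.5 times when 1 library was left out, and none of the 8 was called (Atp5g2, Sdhc, Uqcr10 and Uqcrh in the first, Sdhaf1 in the second, Ndufb1-ps for Inpp5d, Cox6a2 between the Tyrobp-/- groups and the interaction of Atp5b). Other causes of these moves were not tested. No scaling moved the median of all genes by more than 0.1. No paired analysis was possible because replicate numbers follow only the order of the samples.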
